A study of Mus musculus with 65 samples.

Results

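Old neural stem cells (NSCs) were compared after 18 h in stem cell medium with and without doxycycline, which in these cells switches on a cassette for the reprogramming factors Oct4, Sox2, Klf4 and Myc (OSKM). The comparison holds 8 of the 65 libraries of the series, chosen by their group labels: 4 old NSC libraries with doxycycline and 4 untreated old NSC libraries. All 8 come from primary cultures of the subventricular zone of 4 mice aged 25 months with the genotype iOSKM, animals 1 and 2 female and animals 3 and 4 male. Each mouse gave 1 library with doxycycline at 2 µg per ml for 18 h and 1 untreated library from the same 18 h time point, so the libraries are paired by animal. The medium of both groups contained EGF and bFGF. Untreated cells carry the same inducible cassette, and cells without the cassette were not analysed here, so effects of the drug and of the factors cannot be told apart. Young NSC libraries from 5 mice aged 3 to 4 months, with doxycycline and untreated at 18 h in the same medium, serve for the comparison between ages.

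OSKM can return differentiated cells to pluripotency, and a short pulse that stops before identity is lost is called partial reprogramming. In a doxycycline-inducible system the activator M2rtTA binds its promoter when the drug is present. Stem cells of the subventricular zone move between a quiescent state with astrocyte genes and an activated, dividing state that leads to neuroblasts. In culture EGF and FGF keep most of them dividing.

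Total counts ran from 78.7 to 96.3 M in the doxycycline libraries and from 81.9 to 91.7 M in the untreated libraries. Levels are given as CPM, the count divided by the library total in M after scaling by the TMM method, and are compared only within a gene. Values of Malat1, Dst and marker genes, which describe the libraries, are CPM of the unscaled totals. The stem cell markers Nes (median 1240 CPM with doxycycline, 1200 CPM untreated) and Slc1a3 (896 and 983 CPM) were high in both groups. So were Olig1 of the oligodendrocyte list (1610 and 1590 CPM) and Map2 of the neuronal list (964 and 990 CPM). The 24 oligodendrocyte lineage markers summed to 2035 to 2278 CPM with doxycycline and 1940 to 2319 CPM untreated. The 25 neuroblast and neuron markers summed to 1806 to 1943 CPM with doxycycline and 1834 to 1960 CPM untreated. The astrocyte filament gene Gfap was low in both (1.44 and 1.77 CPM). The summed level of 16 microglia and macrophage markers was 11.8 to 14.2 CPM with doxycycline and 12.6 to 14.01 CPM without it. Csf1r, at 679 to 767 counts a library, Cd68, at 150 to 271 counts, and P2ry12, at 140 to 248 counts, made up most of that sum. Of these markers 3 were at 0 in all 8 libraries, and Cx3cr1 had at most 1 count. The summed level of 16 endothelial and mural markers was 80.1 to 87.1 CPM with doxycycline and 77.9 to 87.2 CPM without it, most of it from Notch3 (median 64.7 CPM with doxycycline, 63.0 CPM untreated).

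The untreated libraries of animals 2 and 3 stood apart from the other 6 libraries. Malat1, a long RNA retained in the nucleus, was at 1005, 873, 938 and 735 CPM in the doxycycline libraries of animals 1 to 4, against 848, 242, 228 and 605 CPM in their untreated libraries. Only the untreated libraries of animals 2 and 3 were low. The long cytoskeletal transcript Dst was at 305, 327, 360 and 313 CPM with doxycycline, against 307, 209, 188 and 296 CPM untreated. Features overlapping ribosomal RNA took 1.59 to 1.89% of counts with doxycycline and 0.526 to 1.54% without it, and the groups did not overlap (exact two-sided permutation p = 0.0286, adjusted over 8 measures 0.114). Across genes, the log2 ratio of doxycycline to untreated correlated with transcript length by a Spearman rho of 0.0604, 0.13, 0.286 and 0.0225 in animals 1 to 4, over 11459 to 11485 genes that are not independent. The part of these differences in the results was not tested, so counts are also given for animals 1 and 4 alone.

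**Figure D1:**
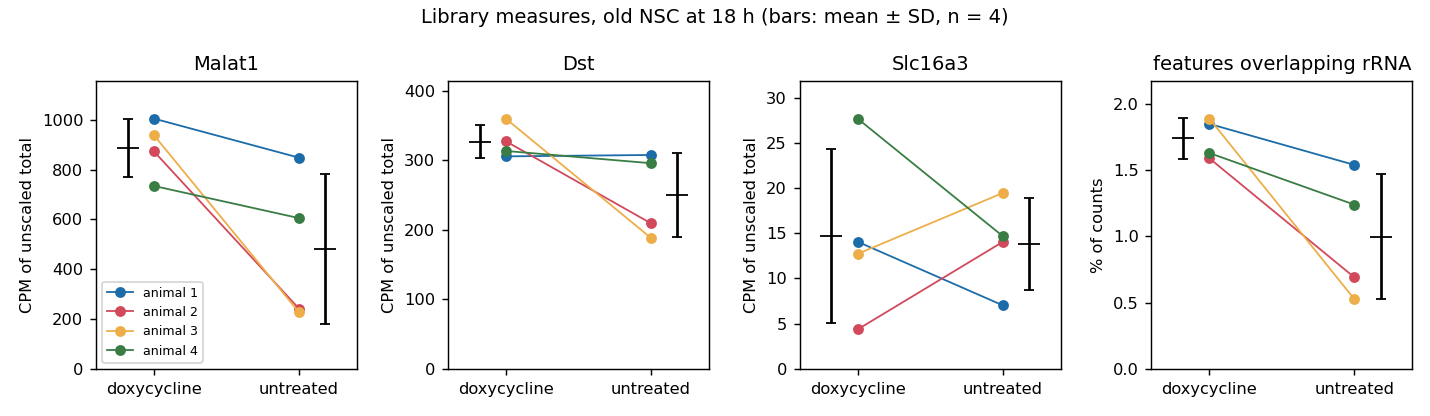
Levels of Malat1, Dst and Slc16a3 in CPM of the unscaled totals, and the percent of counts on features overlapping ribosomal RNA, in each old NSC library, doxycycline on the left and untreated on the right. Lines join the 2 libraries of an animal and black bars give the mean ± SD (n = 4). The untreated libraries of animals 2 and 3 have the lowest Malat1 (242 and 228 CPM) and Dst (209 and 188 CPM).

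Of the cassette factors, Oct4 had the largest ratio but few counts, Myc was slightly lower in every animal, and Sox2 and Klf4 differed little. Pou5f1, the gene of Oct4, was at 0.205, 0.471, 0.456 and 0.455 CPM with doxycycline and at 0.164, 0.17, 0.215 and 0.0778 CPM untreated. These values rest on 16, 42, 39 and 44 counts with doxycycline and 14, 14, 20 and 7 counts untreated. Pou5f1 was higher with doxycycline in 4 of 4 animals, but the doxycycline library of animal 1 lay within the untreated range. Its mean was 0.397 ± 0.128 CPM with doxycycline and 0.157 ± 0.0575 CPM untreated (SD, n = 4 each), a ratio of 2.53 with an exact two-sided permutation p of 0.0571. The edgeR fit with the animals as blocks gave Pou5f1 a log2 fold change of 1.33 (adjusted p = 0.0122), which did not pass with animals 1 and 4 alone (1.43, adjusted p = 0.0777). Sox2, also a factor of neural stem cells, averaged 252 ± 9.45 CPM with doxycycline and 254 ± 12.7 CPM untreated. Klf4 averaged 8.48 ± 0.509 CPM with doxycycline and 7.98 ± 0.633 CPM untreated. Myc, a driver of growth and ribosome production, was at 159, 161, 151 and 163 CPM with doxycycline and at 166, 176, 173 and 173 CPM untreated. The Myc groups did not overlap (exact two-sided permutation p = 0.0286, the smallest that 4 against 4 allows). With exact tests adjusted over the 8 measures tested, both Pou5f1 and Myc had p = 0.114, and the paired exact sign-flip test gave each of them 0.125, the smallest it allows with 4 animals. The activator M2rtTA was at 207 to 223 CPM with doxycycline and 214 to 237 CPM untreated. The linker features P2A, T2A and E2A of the cassette held at most 2 counts with doxycycline and 0 untreated. Reads of the 4 factors from the cassette and of the endogenous genes cannot be told apart in these counts.

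With the animals as blocks, edgeR called 696 of 16652 genes higher (4.18%) and 1167 lower (7.01%) with doxycycline at an adjusted p under 0.05. The changes were small: the median absolute log2 fold change of called genes was 0.131, and 49 genes reached 0.5. Over all tested genes the median log2 fold change was 0.00294. With animals 1 and 4 alone, 470 genes were called higher (2.81%) and 864 lower (5.16%). Of these, 270 and 705 were also called in the same direction with all 4 animals. That fit holds only 2 animals of the same 4, so its p-values rest largely on dispersion shared across genes. Passing or not passing there is no independent replication. Without the blocks, 2 genes were called higher and 1 lower, and 1466 had an unadjusted p under 0.05.

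Agpat4, Slc29a3 and Ednrb were the 3 genes that also passed without the blocks. Agpat4 (ENSMUSG00000023827, chromosome 17, 12118704 to 12219645, GRCm38) encodes an acyltransferase of phospholipid synthesis. It was at 29.9, 29.2, 32.3 and 30.6 CPM with doxycycline, against 16.4, 15.4, 19.6 and 16.9 CPM untreated. The groups were far from overlapping, and the log2 fold change was 0.84 ± 0.04 (SE, adjusted p = 3.82e-13). Slc29a3 (ENSMUSG00000020100, chromosome 10, 60712072 to 60752794), a nucleoside transporter of lysosomes, was at 35.7, 32.6, 33.2 and 32.5 CPM with doxycycline, against 25.2, 22.6, 25.7 and 21.5 CPM untreated. Its log2 fold change was 0.50 ± 0.04 (SE, adjusted p = 1.72e-09). Ednrb (ENSMUSG00000022122, chromosome 14, 103814625 to 103844402), the endothelin receptor of astrocytes and progenitors, was at 157, 151, 152 and 146 CPM with doxycycline, against 190, 177, 184 and 177 CPM untreated. It fell by 0.27 ± 0.02 on the log2 scale (adjusted p = 2.75e-09). With animals 1 and 4 alone the log2 fold changes of Agpat4, Slc29a3 and Ednrb were 0.86, 0.55 and -0.28.

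Among the other strongly raised genes were a sorting receptor, a regulator of G-protein signalling and a mitochondrial transcript. Sorl1, a receptor that sorts proteins between the Golgi and endosomes, was at 19.1, 17.6, 16.3 and 18.2 CPM with doxycycline, against 12.7, 11.9, 9.51 and 11.9 CPM untreated. Every doxycycline library lay above every untreated one (log2 fold change 0.64 ± 0.05 SE, adjusted p = 1.72e-09). The mitochondrial transcript mt-Nd3, of respiratory complex I, was at 223, 193, 195 and 171 CPM with doxycycline, against 138, 133, 133 and 107 CPM untreated (0.61 ± 0.03, adjusted p = 1.55e-11). Rgs8, a regulator of G-protein signalling, was at 76.6, 30.0, 59.7 and 41.9 CPM with doxycycline, against 53.4, 20.4, 42.5 and 29.1 CPM untreated. Its level differed more between animals than between treatments, yet the log2 ratio within each animal was 0.49 to 0.55. Opcml, an adhesion protein of the neuronal surface, rose by 0.50 and Plcl1, a phospholipase C-like protein without catalytic activity, by 0.43. Adamts9, a protease that cleaves matrix proteoglycans, rose by 0.43, Fam129b by 0.43 and Tmem200a by 0.39. mt-Nd2, at 2159 ± 451 CPM with doxycycline and 1490 ± 154 CPM untreated (SD, n = 4 each), rose by 0.52 (adjusted p = 0.0436) but did not pass with animals 1 and 4 alone (adjusted p = 0.545). Of the 13 mitochondrially encoded messages tested these 2 rose (15.4%, against 4.18% of all tested genes) and none fell. The median over the 13 was 0.05. Rbm3os, transcribed next to the cold-inducible gene Rbm3, rose by 0.46 (adjusted p = 0.0216). It did not pass without animal 2 or animal 3 (adjusted p = 0.159 and 0.137).

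**Figure D2:**
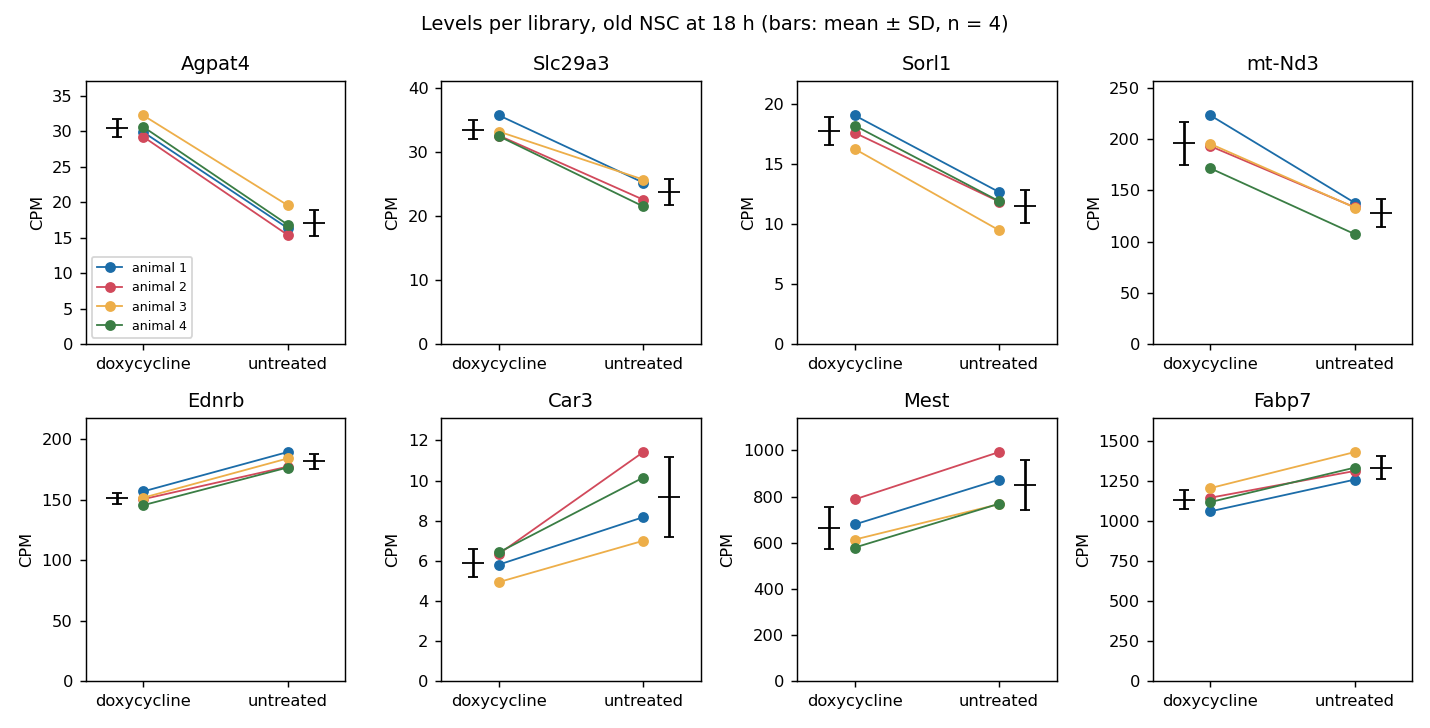
Level in CPM of 8 genes in each old NSC library, doxycycline on the left and untreated on the right, with lines joining the 2 libraries of an animal and black bars giving the mean ± SD (n = 4). Agpat4, Slc29a3, Sorl1 and mt-Nd3 are higher with doxycycline in all 4 animals, and Ednrb, Car3, Mest and Fabp7 are lower in all 4.

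The genes that fell most were mainly of low or moderate level. Car3, a muscle and fat carbonic anhydrase, was at 5.8, 6.34, 4.93 and 6.42 CPM with doxycycline, against 8.17, 11.4, 6.99 and 10.2 CPM untreated (log2 fold change -0.63 ± 0.07 SE, adjusted p = 6.15e-07). Mest, a paternally expressed imprinted gene of fetal growth, was much more abundant, at 679, 788, 613 and 579 CPM with doxycycline, against 873, 993, 767 and 769 CPM untreated. Its groups overlapped because animals differed, but its log2 ratio lay between -0.41 and -0.32 in every animal (-0.36 ± 0.02 SE, adjusted p = 2.73e-12). The water channel gene Aqp4 was at 6.76, 7.78, 8.53 and 7.06 CPM with doxycycline, against 10.9, 9.71, 10.7 and 10.9 CPM untreated (-0.49 ± 0.07 SE, adjusted p = 2.26e-05). Stk32b, a kinase gene, fell by 0.51, but by 0.34 with the share of ribosomal RNA features as a covariate, where it did not pass (adjusted p = 0.261). There Stab1, Ccdc184, Scrg1, Nr5a2, mt-Nd2 and Rbm3os did not pass either. The share was itself higher with doxycycline in 4 of 4 animals, so not passing there cannot tell it apart from treatment. The GABA-A receptor subunit gene Gabra4 fell by 0.48 and the sialyltransferase gene St6galnac5 by 0.41. Stab1, a scavenger receptor, fell by 0.43, the matrix ligand gene Npnt by 0.39, Ccdc184 by 0.39 and Bmper, which encodes a BMP-binding protein, by 0.38. Scrg1 fell by 0.35. Nr5a2, a nuclear receptor active in early embryos, fell by 0.36, but it did not pass with animals 1 and 4 alone (-0.30, adjusted p = 0.105).

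Most genes of the mitotic and replication machinery fell with doxycycline. Of 59 tested genes of the mitotic spindle, kinetochore and cytokinesis, 54 fell (91.5%, against 7.01% of all tested genes) and none rose. Their median log2 fold change was -0.21. Of 44 tested genes of DNA replication 31 fell and none rose (median -0.13), and of 29 condensin, cohesin and mitotic chromatin genes 17 fell and none rose (median -0.12). Tpx2, which organises spindle microtubules, was at 125, 157, 115 and 164 CPM with doxycycline, against 150, 196, 145 and 188 CPM untreated. The groups overlapped, since animals 2 and 4 were higher than animals 1 and 3 in both, but all 4 animals were lower with doxycycline (-0.28 ± 0.02 SE, adjusted p = 1.44e-08). The securin gene Pttg1, whose protein blocks the separation of sister chromatids until anaphase, fell by 0.34. The spindle gene Ckap2l and the chromosomal passenger gene Cdca8 each fell by 0.29. Among replication genes, Rrm2, the ribonucleotide reductase subunit that supplies DNA precursors, was at 191, 235, 189 and 241 CPM with doxycycline, against 226, 277, 220 and 265 CPM untreated. It fell by 0.21, as did Mcm10, a loading factor of the replication fork. Gmnn, the licensing inhibitor geminin, fell by 0.24 and the histone chaperone gene Chaf1b by 0.20. Hmgb2 fell by 0.24, and the condensin genes Ncapd2 and Smc2 by 0.21 and 0.20. With animals 1 and 4 alone, 46 mitotic, 25 replication and 16 condensin and chromatin genes fell, against 5.16% of all genes tested there. With the share of ribosomal RNA features as a covariate, 28 of 59 mitotic, 12 of 44 replication and 7 of 29 condensin and chromatin genes fell. In that fit 388 of all 16652 tested genes fell.

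Many G1 cyclin, E2F and DREAM genes moved the same way, while CDK inhibitors and p53 targets mostly did not pass. Of 30 G1 cyclin, E2F and DREAM genes 15 fell (50%, against 7.01% of all tested genes) and none rose (median -0.09). Foxm1, the transcription factor of mitotic genes, fell by 0.28, E2f8 by 0.24, the cyclin gene Ccne1 by 0.22 and Mybl2, which activates mitotic genes with Foxm1, by 0.20. Of 30 homologous recombination and checkpoint genes 8 fell (26.7%) and 1 rose (3.33%), and 4 fell with animals 1 and 4 alone. Of 26 genes of CDK inhibitors and p53 targets 1 rose (3.85%) and 3 fell (11.5%), against 4.18% and 7.01% of all tested genes. Their median was 0.000754. Cdkn2b, the inhibitor p15, rose by 0.12 (adjusted p = 0.00834). Cdkn2c, the inhibitor p18, fell by 0.15 and Cdkn1a, the inhibitor p21, by 0.07 (adjusted p = 0.0216). Cdkn2b and Cdkn1a did not pass with animals 1 and 4 alone (adjusted p = 0.108 and 0.0751). In bulk RNA, fewer dividing cells and less of these RNAs per cell cannot be told apart.

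**Figure D3:**
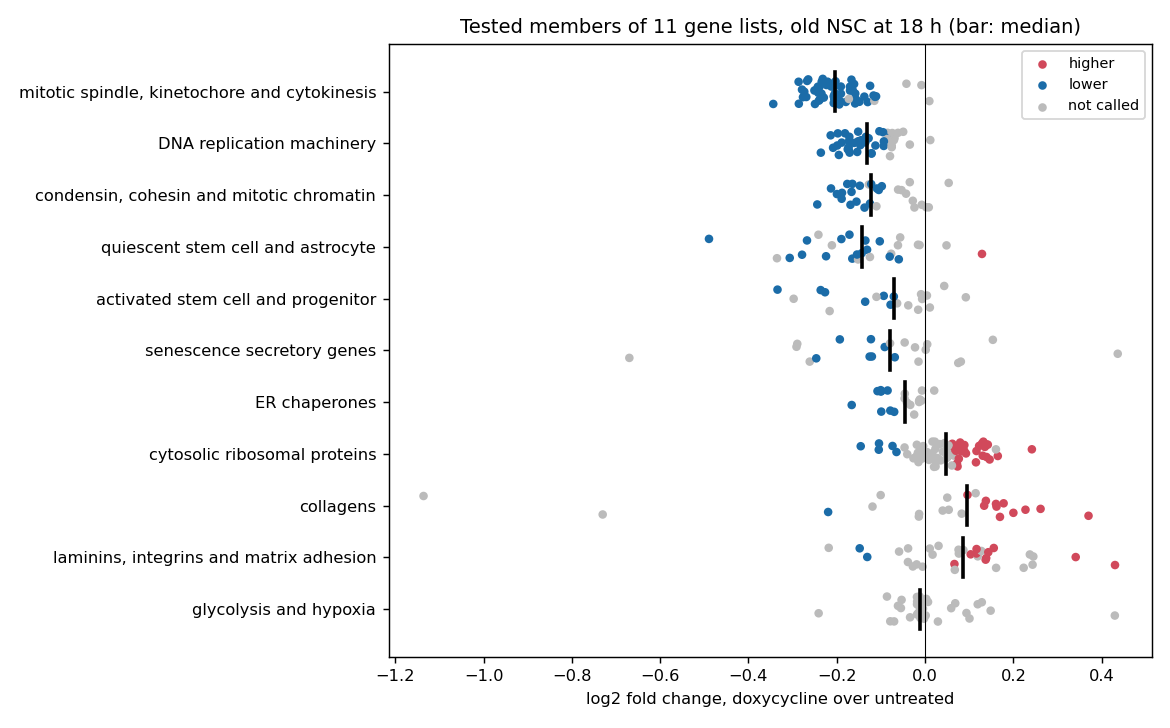
Log2 fold change, doxycycline over untreated, of each tested member of 11 gene lists in old NSCs (1 point a gene), with a black bar at the list median. Red points were called higher, blue points lower and grey points were not called. The mitotic list has its median at -0.21 with 54 of 59 members called lower, and the ribosomal protein list at 0.05 with 29 of 74 called higher.

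Promoters of the lowered mitotic genes were searched for the letters of known motifs, because many mitotic genes share a CHR element and CCAAT boxes bound by NF-Y. The windows are the first listed for each gene in RefSeq on GRCm38.p6 and run from 250 bases before to 50 after that start. The motifs were TTTGAA for the CHR, CCAAT, the E2F forms TTTGGCGC, TTTCCCGC, TTTCGCGC and TTTGCCGC, the E box CACGTG and the octamer ATGCAAAT, each on both strands. The windows of Ckap2l (chr2:129297163-129297462, minus strand), Cdca8 (chr4:124936868-124937167, minus strand) and Pttg1 (chr11:43425932-43426231, minus strand) show how the strongest mitotic genes vary, and those of Rrm2 (chr12:24708004-24708303, plus strand), Agpat4 (chr17:12119034-12119333, plus strand) and Slc29a3 (chr10:60752733-60753032, minus strand) show a replication gene and the clearest raised genes. They read 5′ to 3′ along the gene, with every motif match in capitals.
Ckap2l: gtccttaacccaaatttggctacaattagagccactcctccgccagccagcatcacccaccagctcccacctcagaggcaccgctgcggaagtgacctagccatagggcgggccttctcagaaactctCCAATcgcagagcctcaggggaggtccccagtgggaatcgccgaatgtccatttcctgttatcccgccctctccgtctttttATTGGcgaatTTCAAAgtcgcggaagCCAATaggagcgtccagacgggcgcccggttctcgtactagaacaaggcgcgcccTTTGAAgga
Cdca8: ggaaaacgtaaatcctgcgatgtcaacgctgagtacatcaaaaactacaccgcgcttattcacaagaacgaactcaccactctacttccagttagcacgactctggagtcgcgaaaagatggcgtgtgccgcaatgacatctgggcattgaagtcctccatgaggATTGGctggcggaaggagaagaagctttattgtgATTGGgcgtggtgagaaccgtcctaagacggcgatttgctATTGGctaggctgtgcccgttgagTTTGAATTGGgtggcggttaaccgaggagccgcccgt
Pttg1: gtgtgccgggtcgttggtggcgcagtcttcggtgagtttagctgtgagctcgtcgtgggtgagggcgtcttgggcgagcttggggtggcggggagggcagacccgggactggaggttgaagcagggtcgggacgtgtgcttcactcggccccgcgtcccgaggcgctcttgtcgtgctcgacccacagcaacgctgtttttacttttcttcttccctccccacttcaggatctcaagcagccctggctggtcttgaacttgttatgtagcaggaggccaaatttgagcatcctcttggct
Rrm2: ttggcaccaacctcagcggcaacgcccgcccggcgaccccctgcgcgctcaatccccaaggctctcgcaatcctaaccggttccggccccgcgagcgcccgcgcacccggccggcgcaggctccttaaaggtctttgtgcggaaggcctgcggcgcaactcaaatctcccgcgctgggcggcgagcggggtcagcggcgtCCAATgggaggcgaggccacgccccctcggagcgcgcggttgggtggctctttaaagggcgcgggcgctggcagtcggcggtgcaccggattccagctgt
Agpat4: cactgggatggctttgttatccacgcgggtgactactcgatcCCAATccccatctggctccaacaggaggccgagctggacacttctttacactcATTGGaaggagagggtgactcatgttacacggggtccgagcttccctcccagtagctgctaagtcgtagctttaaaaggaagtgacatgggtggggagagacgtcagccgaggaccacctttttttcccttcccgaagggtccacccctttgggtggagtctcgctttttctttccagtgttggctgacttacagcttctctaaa
Slc29a3: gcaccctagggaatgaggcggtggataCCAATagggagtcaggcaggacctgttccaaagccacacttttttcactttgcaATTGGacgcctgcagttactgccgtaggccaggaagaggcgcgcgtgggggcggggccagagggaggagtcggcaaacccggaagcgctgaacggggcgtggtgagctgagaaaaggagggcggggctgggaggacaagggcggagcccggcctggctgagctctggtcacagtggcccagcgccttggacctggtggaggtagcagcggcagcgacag

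Ckap2l held 2 CHR and 3 CCAAT matches and Cdca8 held 1 CHR and 4 CCAAT matches, 1 of which overlaps its CHR. Pttg1 fell most of the mitotic list and held none of the 5 motifs in this window. The Pttg1 window lies wholly inside the annotated gene (43420250 to 43426251), so the sequence before the gene's annotated start was not searched. The same holds for the windows of Cdca8 and Agpat4. Rrm2 held 1 CCAAT match, and Agpat4 and Slc29a3 held 2 each. The CHR letters were in 32 of 51 mitotic gene windows (62.7%) and in 30 of the 46 called lower (65.2%), against 1409 of 11914 windows of all tested genes (11.8%). They were in 135 of 856 windows of all lowered genes (15.8%) and in 48 of 518 windows of raised genes (9.3%). CCAAT was in 72.5% of mitotic windows and in 38.4% of all windows. The E2F forms were in 13 of 35 replication gene windows (37.1%) and in 3.9% of all windows. The octamer letters were in 1.4% of windows of lowered genes, 1.9% of raised genes and 1.4% of all. These shares describe the lists and were not tested.

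Most tested markers of quiescent stem cells and a minority of those of activated stem cells fell with doxycycline. The summed level of 28 quiescent stem cell and astrocyte markers was 4467 to 4748 CPM with doxycycline, below the 4947 to 5197 CPM of untreated libraries. Of the 27 tested, 15 fell (55.6%) and 1 rose (3.7%), against 7.01% and 4.18% of all tested genes. Their median was -0.14, and with animals 1 and 4 alone 14 fell and 1 rose. The metallothionein gene Mt3 fell by 0.31 (adjusted p = 2.55e-08). Sparcl1, a matrix protein secreted by astrocytes, was at 456, 626, 464 and 521 CPM with doxycycline, against 547, 732, 599 and 624 CPM untreated (-0.28 ± 0.02 SE, adjusted p = 5.83e-09). Htra1, a secreted serine protease, was the member that rose, by 0.13. The summed level of 20 activated stem cell and progenitor markers was 4741 to 4856 CPM with doxycycline and 5011 to 5192 CPM untreated. Of the 19 tested, 7 fell (36.8%) and none rose (median -0.07), and Nes did not pass (log2 fold change 0.04, adjusted p = 0.541). The sum includes Fabp7, with a median of 1130 CPM with doxycycline and 1330 CPM untreated. Fabp7, the brain fatty acid binding protein of radial glia, was at 1058, 1143, 1203 and 1116 CPM with doxycycline, against 1256, 1310, 1428 and 1331 CPM untreated (-0.24 ± 0.02 SE, adjusted p = 1.14e-09). All doxycycline libraries lay below all untreated ones. Pax6 fell by 0.14 (adjusted p = 0.0281), but did not pass with animals 1 and 4 alone (adjusted p = 0.0779).

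Markers of differentiated lineages did not move together. Of 21 tested neuroblast and neuron markers 1 rose (4.76%) and 2 fell (9.52%), against 4.18% and 7.01% of all tested genes. Of 21 oligodendrocyte lineage markers 3 rose (14.3%) and 2 fell (9.52%). Cspg4, the proteoglycan of oligodendrocyte precursors, rose by 0.19, and Nkx2-2, a transcription factor of the same lineage, fell by 0.19. None of 3 tested microglia markers and none of 9 endothelial and mural markers passed. Of 4 tested genes of the pluripotency network, out of 22 listed, none passed. Of 14 mesenchymal genes 3 rose and 2 fell, and of 4 epithelial genes none passed. Of 10 tested ependymal markers 1 rose and 1 fell, with a median of -0.11. Rsph1 rose by 0.66 at low level (2.22 ± 0.368 CPM with doxycycline, 1.4 ± 0.338 CPM untreated, SD, n = 4 each). Foxj1, the transcription factor of motile cilia, fell by 0.15 at a higher level (19.9 ± 2.56 CPM with doxycycline, 22.1 ± 1.46 CPM untreated, adjusted p = 0.0265). Of 7 tested fibroblast and meningeal markers 1 rose and 1 fell, with a median of -0.06. Col1a1, a fibroblast collagen, rose by 0.75, also at low level (1.75 ± 0.301 CPM with doxycycline, 1.04 ± 0.118 CPM untreated, SD, n = 4 each). The cassette lies at the Col1a1 locus (chromosome 11, 94936224 to 94953042), and its part in this rise was not tested. Fbln1, a matrix glycoprotein, fell by 0.17 (21.7 ± 3.94 CPM with doxycycline, 24.4 ± 3.96 CPM untreated, adjusted p = 0.00852), but did not pass with animals 1 and 4 alone (adjusted p = 0.267).

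More cytosolic ribosomal protein genes rose than fell, all by small amounts. Of 74 tested 29 rose (39.2%) and 5 fell (6.76%), against 4.18% and 7.01% of all tested genes. Their median log2 fold change was 0.05, and with animals 1 and 4 alone 31 rose and 4 fell. Rpl36, of the large subunit, was at 251, 251, 258 and 291 CPM with doxycycline, against 225, 204, 230 and 229 CPM untreated (0.24 ± 0.03 SE, adjusted p = 9.42e-04). Rpl35a rose by 0.16 and Rpl9 by 0.15, while Rps26 of the small subunit fell by 0.15. These families have near-identical processed copies in the genome, so reads may be divided among them. Genes of ribosome biogenesis and MYC targets went the other way where they passed. Of 34 tested 6 fell (17.6%) and none rose, including Nolc1, a nucleolar chaperone, by 0.13. With animals 1 and 4 alone 3 of them fell.

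Some matrix genes rose and some folding genes of the endoplasmic reticulum fell, while many tested members of these lists did not pass. Of 23 collagen genes, a list without Col1a1, 11 rose (47.8%) and 1 fell (4.35%), against 4.18% and 7.01% of all tested genes. Their median was 0.10. Of 33 laminin, integrin and matrix adhesion genes 10 rose (30.3%) and 2 fell (6.06%), with a median of 0.09. Col18a1, a basement membrane collagen, was at 216, 166, 215 and 195 CPM with doxycycline, against 189, 130, 178 and 166 CPM untreated (0.26 ± 0.02 SE, adjusted p = 5.36e-08). Col6a3 rose by 0.37, Col4a5 by 0.23 and the integrin subunit gene Itga3 by 0.34. Itga3 (chromosome 11, 95044474 to 95076801) lies near Col1a1, the locus of the cassette, whose part in its rise was not tested. Col6a2 fell by 0.22 and Ncan, a brain proteoglycan, by 0.15. With animals 1 and 4 alone 6 collagen genes rose and 1 fell. Of 20 chaperone genes of the endoplasmic reticulum 9 fell (45%) and none rose, and 5 fell with animals 1 and 4 alone. Hsp90b1, the HSP90 protein of this compartment, fell by 0.11 and the cochaperone gene Dnajb9 by 0.17, which did not pass with animals 1 and 4 alone (adjusted p = 0.166). The median annotated transcript length was 6017 bases for raised genes, 4032 bases for lowered genes and 3926.5 bases for all tested genes. Long transcripts were also low in the untreated libraries of animals 2 and 3, and their part in the matrix result was not tested.

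Secreted and signalling genes changed in smaller numbers. Of 21 genes of the senescence-associated secretory list 7 fell (33.3%) and none rose. Over all tested genes 4.18% rose and 7.01% fell, the shares to set beside each list here. Igfbp4, which binds insulin-like growth factors, was at 161, 286, 178 and 216 CPM with doxycycline, against 188, 341, 224 and 244 CPM untreated (-0.25 ± 0.02 SE, adjusted p = 1.4e-07). Igfbp2 fell by 0.13 and the protease inhibitor gene Serpine2 by 0.12. Lmnb1, on this list as a nuclear lamin that is lost in senescence, fell by 0.19. In the Notch pathway 2 of 23 genes rose (8.7%) and 4 fell (17.4%), among them the targets Nrarp and Hes1 by 0.22 and 0.14. In the Wnt pathway 4 of 28 fell (14.3%), among them the secreted inhibitor gene Sfrp2 by 0.32 and the repressor gene Tcf7l1 by 0.26. Hes1 and Sfrp2 did not pass with animals 1 and 4 alone (adjusted p = 0.336 and 0.0961). Of 22 imprinted growth genes 1 rose (4.55%) and 5 fell (22.7%). Besides Mest these included Plagl1, a zinc finger factor of growth control, by 0.20 and Nnat, a membrane proteolipid of developing brain, by 0.15. Of 28 glutamate and GABA receptor genes 3 rose (10.7%) and 7 fell (25%), and of 36 axon guidance genes 6 fell (16.7%) and none rose.

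Glycolysis and hypoxia genes did not pass as a group with all 4 animals, and the animals disagreed in direction. None of 31 tested genes was called, and the median log2 ratio was 0.159, -0.236, -0.154 and 0.195 in animals 1 to 4. Slc16a3, the lactate exporter, was at 14.2, 4.36, 12.7 and 27.5 CPM with doxycycline, against 7.13, 13.9, 19.2 and 14.7 CPM untreated. It was higher with doxycycline in animals 1 and 4 and lower in animals 2 and 3, whose untreated libraries had low Malat1. Bnip3, a hypoxia-induced mitophagy gene, split the same way, at 51.6, 23.4, 45.2 and 79.2 CPM with doxycycline and 33.6, 44.7, 61.5 and 49.5 CPM untreated. With animals 1 and 4 alone 20 of the 31 rose, against 2.81% of all genes tested there, and none fell. In young NSCs 15 of 31 rose, against 6.85% of all genes tested there, and none fell.

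**Figure D4:**
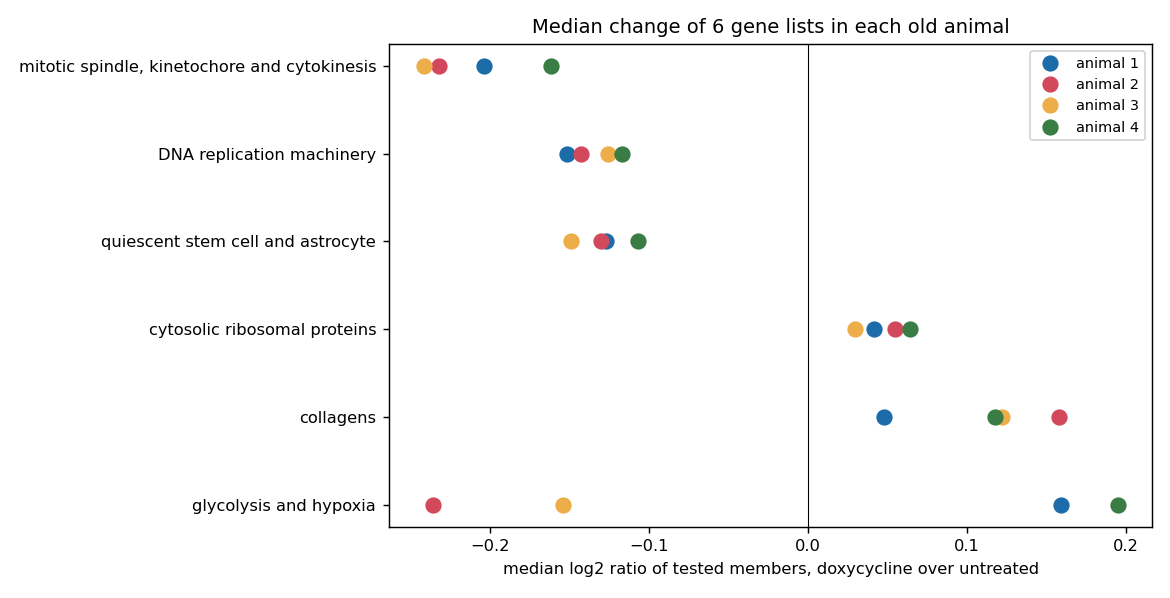
Median log2 ratio, doxycycline over untreated, of the tested members of 6 gene lists in each of the 4 old animals. The first 3 lists lie below 0 and the ribosomal protein and collagen lists above 0 in every animal, while glycolysis and hypoxia genes lie at 0.159 and 0.195 in animals 1 and 4 and at -0.236 and -0.154 in animals 2 and 3.

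Young NSCs gave an independent set of libraries for the same treatment. There, 1139 of 16621 genes were called higher (6.85%) and 1121 lower (6.74%) with doxycycline. Of the genes called higher in old NSCs, 175 of 696 were also called higher and 16 called lower in young NSCs. Of those called lower in old NSCs, 368 of 1167 were also called lower and 30 called higher. Agpat4 rose by 0.94 ± 0.05 and Slc29a3 by 0.64 ± 0.04 in young NSCs (log2, SE), and Ednrb fell by 0.21 ± 0.03. In the mitotic list 56 of 59 fell in young NSCs and none rose, and in the replication list 34 of 44 fell and none rose. The median of the mitotic list was -0.21 in old and -0.31 in young NSCs. In the test of the difference between ages, given below with its limits, 8 of its 59 members were called. Over all genes that test called 589 of 17177 (3.43%). Among the 25 genes named above for their size or for passing without blocks, the sign was the same in young NSCs for all but Rbm3os and Stab1. Rbm3os had a log2 fold change of -0.22 in young NSCs (adjusted p = 0.436) and Stab1 one of 0.14 (adjusted p = 0.297). Of the others, mt-Nd2, Stk32b, Aqp4, Ccdc184 and Scrg1 were not called in young NSCs, with log2 fold changes of 0.29, -0.25, -0.15, -0.03 and -0.04 there.

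A test of the difference in response between ages called 589 of 17177 genes (3.43%). Stab1 had a log2 fold change of -0.43 in old and 0.14 in young NSCs, a difference of -0.57 (adjusted p = 0.0144). Aqp4 differed by -0.34 (adjusted p = 0.0358) and Npnt by -0.24 (adjusted p = 0.0128). Igfbp4, at a log2 fold change of 0.02 in young NSCs, differed by -0.27 (adjusted p = 0.00816), and Sparcl1, at -0.04 in young NSCs, by -0.25 (adjusted p = 0.0082). Col6a2 rose by 0.18 in young NSCs and differed by -0.40 (adjusted p = 0.00816). Of the ribosomal protein genes, 5 of 74 rose and none fell in young NSCs, and 4 of the 74 differed between ages, Rpl35a by 0.20 (adjusted p = 0.012). Lysosome and autophagy genes rose in 2 of 34 cases in old NSCs and in 17 of 34 in young NSCs, and 5 differed. The doxycycline library of young animal 1 also had low Malat1, at 246 CPM against 959 CPM untreated. When the interaction was fitted on the 6 animals whose libraries had like Malat1 levels, edgeR called 0 genes, and 1776 had an unadjusted p under 0.05.

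**Figure D5:**
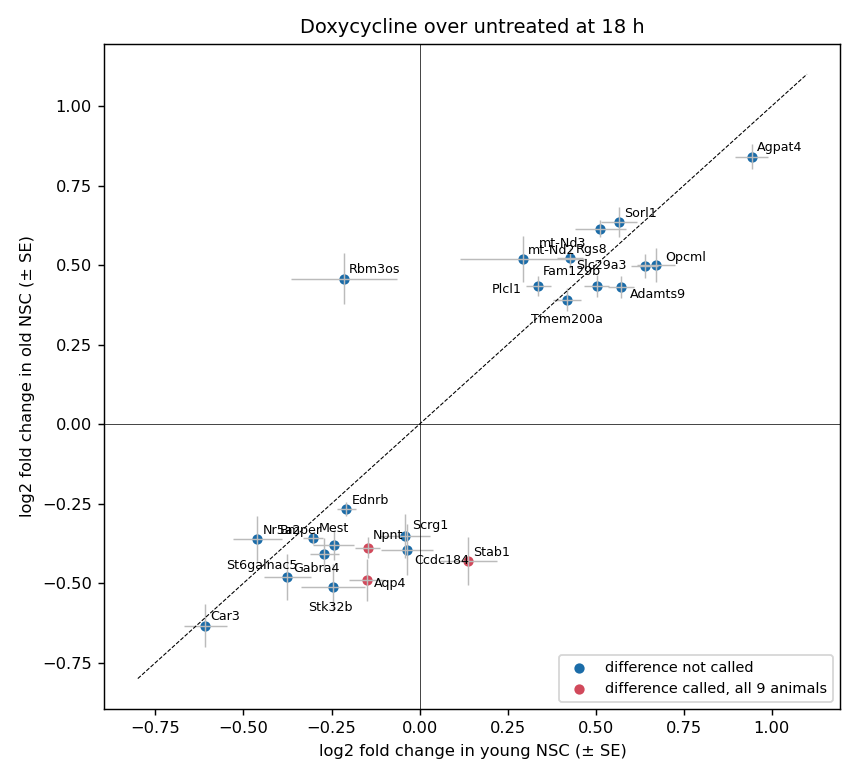
Log2 fold change with doxycycline of 25 named genes in young NSCs (horizontal axis, 5 animals) and old NSCs (vertical axis, 4 animals), with bars of ± 1 SE and a dashed line of equality. Agpat4 lies highest at both ages (0.94 in young and 0.84 in old NSCs), and red points mark Aqp4, Npnt and Stab1, whose difference between ages was called with all 9 animals.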

How the data were processed

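RNA was isolated from primary NSC cultures, and libraries were made with a stranded kit for polyadenylated RNA, pooled, and sequenced as paired reads, per the labels' protocols. Per the submitters' processing notes, the tools were STAR 2.7.10b for build mm10, Trim Galore 0.6.6, DESeq2 1.40.1, Subread and SAMtools. Their settings, including the use of strand in counting, are not given in the sources used here. The deposited count table holds whole-number counts for 31057 features and 65 libraries, not normalised. Values of 2 outnumber values of 1 (9486 against 2560 in the 8 libraries), so both mates of most pairs appear to have been counted. The authors also deposited variance-stabilised log2 values, used here as an alternative. Symbols and positions come from GENCODE M21.

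Counts were fitted with edgeR 4.0.16 in R 4.3.3 (TMM, robust quasi-likelihood test, genes kept by filterByExpr at a minimum count of 10, Benjamini-Hochberg over all genes tested) with the animal as a block, since the labels give both libraries of a pair the same animal number. Deviations from the group means correlated by 0.614 to 0.692 between libraries of 1 animal and by at most 0.154 between animals (median -0.224, 16652 genes). Centring on group means of 4 libraries itself pulls the values between animals below 0. The fit has 3 residual degrees of freedom, and 3 features hold the ribosomal RNA share. Library measures were tested exactly (scipy permutation). Alternatives were no block, DESeq2 size factors, DESeq2 1.42.0, no filter, each animal left out, halved counts, the log2 values in limma 3.58.1, the ribosomal RNA share as covariate, and rRNA and mitochondrial features left out. The fits on animals with like Malat1 levels were chosen after seeing the data. The fit was also run on simulated counts. These lacked the Malat1, ribosomal RNA and length differences between paired libraries, so that run cannot speak to their part in the calls.

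Named genes are the 12 called per direction with the largest change, a mean of at least 5 CPM, 1 direction in 4 animals and no predicted-gene symbol, up to 4 called per list and direction, the cassette factors, and all genes called without blocks. Some results under this rule are not reported here. Genes outside this rule are Slc16a3, Bnip3, Malat1, Dst and the markers Nes, Slc1a3, Olig1, Map2, Gfap, Cx3cr1, Csf1r, Cd68, P2ry12 and Notch3. Members and lists were chosen with earlier results of these data known. The labels name separate animals. In the blocked fits, p-values rest on the spread across animals of the difference within each animal, with dispersion shared across genes. Fits without blocks and the unpaired permutation tests also carry the spread of levels between animals. Overlapping or antisense genes, such as Mest and its neighbours and Rbm3os with Rbm3, may share reads.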

Additional observations from a re-analysis of the deposited data

Results flagged for a closer look

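In 6 of 90 groups of 4 libraries tested, 1 library lay far from the other 3; chance alone gives about 1 in 20. Pou5f1 was at 0.205 CPM in the doxycycline library of animal 1, against 0.455 to 0.471 CPM in the other 3 doxycycline libraries. St6galnac5 was at 18.2 CPM in the doxycycline library and at 21.4 CPM in the untreated library of animal 2, above 10.9 to 11.9 and 15.3 to 16.1 CPM in the other animals. Nr5a2 was at 10.5 CPM in the untreated library of animal 2, against 5.24 to 5.41 CPM in the others. The untreated library of animal 4 had mt-Nd3 at 107 CPM, against 133 to 138 CPM, and the doxycycline library of animal 1 had Stab1 at 4.26 CPM, against 4.59 to 4.66 CPM.

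Of 189 named genes, 27 differed between ages in their response to doxycycline in edgeR's interaction test with all 9 animals. Differences are given as old minus young in log2. Over all genes tested, 589 of 17177 were called (3.43%). Most of the 189 were named because they were called in old NSCs, whose fold change enters this test. That choice favours differences between ages, so a higher share among named genes does not show an age-specific response. No gene of any kind passed when the 3 animals with a low-Malat1 library were left out. That fit also holds fewer animals, so it cannot speak to these 27 in particular. Differences below 0 were found for Stab1 (-0.57), Col6a2 (-0.40), Aqp4 (-0.34), Igfbp4 (-0.27), Ifitm3 (-0.26), Ndufa8 (-0.25), Nr4a1 (-0.25), Sparcl1 (-0.25), Npnt (-0.24), Ncan (-0.24), Lrrc4 (-0.22), Grin3a (-0.19), Dhcr7 (-0.18), Hlf (-0.18), Ndufv2 (-0.18), Spry1 (-0.18), Kcnip3 (-0.16), Rpl28 (-0.16), Spry2 (-0.15), Cdkn1a (-0.15), Id2 (-0.14), Lfng (-0.14) and Serpine2 (-0.14). Differences above 0 were found for Grin2a (0.43), Tnc (0.21), Cdon (0.20) and Rpl35a (0.20). Their adjusted p-values ran from 0.0062 to 0.0489.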

How the results depend on the processing

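Pairing by animal decided the number of calls. Without the replicate block 2 genes were called higher and 1 lower in old NSCs, 6 in young NSCs, and 0 in the interaction by edgeR (1516 at an unadjusted p under 0.05). With the share of ribosomal RNA features as a covariate beside the block, 185 genes were called higher and 388 lower, 28 mitotic and 12 replication genes among the lower. Of the 185 and 388, 93 and 267 were also called in the same direction without the covariate. The share was itself higher with doxycycline in 4 of 4 animals, so this fit cannot separate it from treatment. DESeq2 called 399 higher and 851 lower, and 899 in the interaction. Leaving out 1 animal at a time gave 321 to 604 higher and 716 to 1019 lower in old NSCs, the fewest without animal 2, and 1142 to 3317 in young NSCs. For the interaction it gave 55 to 2331, the extremes being without old animal 3 and without young animal 5. On animals with like Malat1 levels the interaction gave 0. The deposited log2 values in limma called 548 higher and 1468 lower, a share of 27.2% higher against 37.4% in the counts. DESeq2 size factors, no filter, halved counts and leaving out rRNA and mitochondrial features kept both old counts within 1.5 times. None of the 25 genes named for size or for passing without blocks changed sign under the alternatives run, but 7 of them were no longer called with the ribosomal RNA covariate. The log2 ratio of the ribosomal RNA share was 0.547 to 1.06 with 1 animal left out, where an exact test of 3 against 3 cannot reach the threshold. Pou5f1 kept its ratio on raw totals (log2 1.33 in place of 1.34). The causes of these shifts were not tested. Depth limits Pou5f1, at 7 to 44 counts a library.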
